A study of Mus musculus with 8 samples.

Results

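The genes of glycolysis and of the response to low oxygen were followed in mouse embryonic stem (ES) cells with and without an inducible transgene. The set was a list of 42 symbols, taken by exact match to the gene names in the authors' deposited table, and 41 of them had an entry of their own among its 23284 gene entries. Eno1 had none, since it shares an entry with Gm5506, and was dropped. The match used gene names only, but the list itself was drawn up with earlier results of these data known. Clone 6 (the transgenic line) carries a Ctcfl transgene that doxycycline induces, and clone 7 (the non-transgenic line) carries none. Both lines are ES cells of a strain given as mixed. The 4 groups were transgenic cells with doxycycline, transgenic cells without it, non-transgenic cells with doxycycline and non-transgenic cells without it, where doxycycline was at 2 µg/ml for 48 h. Cells of all groups had been kept on mouse embryonic fibroblast feeders and spent those 48 h off them. Each genotype is represented by 1 clone, so the transgene and any other difference between the clones cannot be told apart, and the promoter that drives the transgene was not given in the sources used here.

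Each group had 2 libraries of total RNA, called biological replicates in the labels, and the authors deposited 1 value per gene and group in FPKM, a level scaled to transcript length and to the library's mapped fragments. Library depth is therefore unknown, no level carries an SD, and p-values measure only the spread between these libraries as the authors estimated it. A gene was called changed where the q-value of the authors' deposited table, a p-value adjusted for the number of tests, was under 0.05. All 10 ES cell markers examined were above 0 in every group and summed to between 4018 and 4336 FPKM. All 15 fibroblast markers were above 0 too, at sums between 416 and 514 FPKM. Ctcfl itself was at 0.995 and 0.403 FPKM in transgenic cells with and without doxycycline. That difference was not called (p = 0.0062 before adjustment, q = 0.296 in the authors' deposited table). In non-transgenic cells with and without doxycycline, Ctcfl was at 0.498 and 0.513 FPKM.

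Glycolysis splits glucose into pyruvate in the cytosol, and lactate dehydrogenase can then turn pyruvate into lactate. Oxygen acts on this pathway through the hypoxia-inducible factors (Hif): with oxygen present, prolyl hydroxylases of the Egln family mark the Hif alpha subunits for destruction by the Vhl ubiquitin ligase, and without it the subunits pair with Arnt and bind DNA at the core letters ACGTG or GCGTG. Their targets include most glycolytic enzymes, glucose and lactate transporters, and Egln3 itself. Naive mouse ES cells are known for using both glycolysis and respiration, and primed pluripotent cells for leaning on glycolysis.

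Most of the glycolytic enzymes were among the highly expressed genes of these cells. The mean of the 4 group values was 100 FPKM or more for 13 of the 41 genes, from 10 to 100 FPKM for 19, from 1 to 10 FPKM for 8 and under 1 FPKM for Car9. Gapdh, which oxidises glyceraldehyde phosphate, was the highest with a mean of 3111 FPKM and rank 36 among all entries. Pkm2 (pyruvate kinase, rank 58), Aldoa (aldolase, rank 79) and Ldha (the muscle-type lactate dehydrogenase subunit, rank 94) were the other members among the 100 highest genes. Some isozymes of one step stood far apart in these length-scaled levels. Others were close, such as the phosphofructokinase subunits Pfkm and Pfkp, with means of 25.6 and 19.5 FPKM. Aldoa was at 1501, 1690.1, 1759 and 2016 FPKM in transgenic cells with and without doxycycline and non-transgenic cells with and without it, while its paralog Aldoc was between 9.43 and 14.9 FPKM. The lowest members were Adm, which encodes the peptide adrenomedullin and lay between 1.03 and 1.92 FPKM, Pfkfb4, between 1.14 and 1.60 FPKM, and Car9, a carbonic anhydrase, between 0.435 and 0.858 FPKM. Reads of some members can also match transcripts annotated to other genes. Of the 75-base stretches in the longest coding GENCODE transcript, 80.3% were identical, on either strand, to a transcript of another gene for Gapdh. The share was 67.5% for Pgk1, 46.3% for Bnip3 and 40.6% for Pgam1, so these values are uncertain. It was over 10% for 11 of the 41 genes, among them also Higd1a (34.3%), Pkm2 (19.6%), Ldhb (16.7%) and Pfkp (16.6%). By contrast, 22 of the 41 genes had no such stretch.

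**Figure D1:**
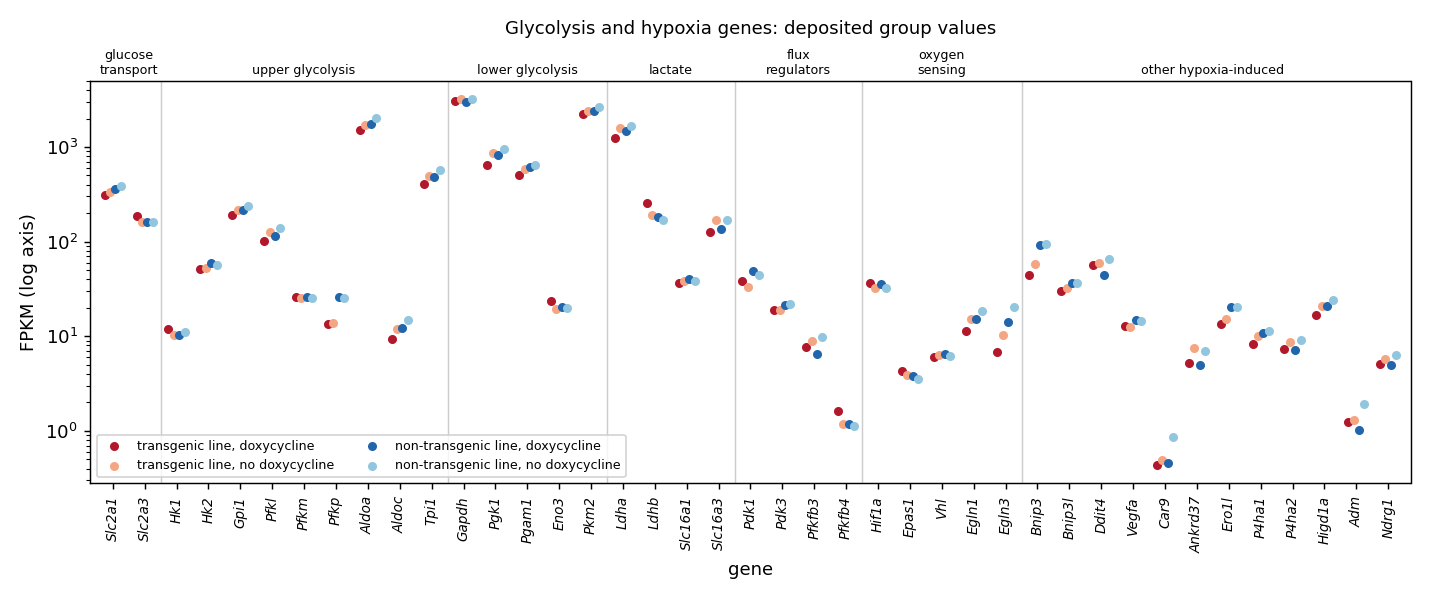
FPKM on a log axis for the 41 genes, ordered by role, with 1 point per group. Gapdh, Pkm2, Aldoa and Ldha lie above 1000 FPKM in every group, and Car9 lies under 1 FPKM in every group.

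With doxycycline, the enzymes and transporters of glycolysis were mostly at slightly lower levels in each line, and no single gene passed the threshold. None of 40 members tested was called with doxycycline in the transgenic line in the authors' deposited table, where 14 of 13003 genes (0.108%) were (Car9 had no test there). None of 41 was called in the non-transgenic line, where no gene was (0%). Before adjustment, by p in the authors' deposited table, 5 of 40 members were under 0.05 in the transgenic line, against 140 of all genes (1.08%), and 3 of 41 in the non-transgenic line, against 14 of all genes (0.108%). As fractions, both shares of all genes are far below the 0.05 that p-values give where nothing differs, so these tests were conservative. The summed FPKM of the 41 genes was 11267 in transgenic cells with doxycycline and 12557 in those without it, and 12332 in non-transgenic cells with doxycycline and 13625 in those without it. That is a change of -10.3% in the transgenic line and -9.49% in the non-transgenic line, in sums that the few highest genes dominate. In bulk RNA, fewer cells of a kind and less RNA per cell cannot be told apart.

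Beside this, the ES cell markers summed to 4188 and 4018 FPKM in transgenic cells with and without doxycycline and to 4336 and 4109 FPKM in non-transgenic cells with and without it. The fibroblast markers summed to 514 and 489 FPKM in transgenic cells with and without doxycycline and to 417 and 416 FPKM in non-transgenic cells with and without it. Those sums rest mostly on the highest markers. The median change of the 10 ES cell markers with doxycycline was 0.25 on the log2(FPKM + 1) scale in the transgenic line, with 6 above 0, and 0.16 in the non-transgenic line, with 9 above 0. None was called, and 3 had p under 0.05 before adjustment in the transgenic line in the authors' deposited table, all higher with doxycycline: Zfp42 (p = 0.00535), Esrrb (p = 0.0132) and Nanog (p = 0.04375). The fibroblast markers had medians of -0.03 in the transgenic line and 0.04 in the non-transgenic line. The part of either marker set in the glycolytic values was not tested.

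Among the glucose transporters, Slc2a1 was at 313 and 333 FPKM in transgenic cells with and without doxycycline and at 358 and 387 FPKM in non-transgenic cells with and without it. Slc2a3, the high-affinity neuronal type, was at 188 and 161 FPKM in transgenic cells with and without doxycycline and at 159.9 FPKM in both non-transgenic groups. Doxycycline groups were thus lower for Slc2a1 in both lines, but not for Slc2a3. The log2 ratios of both genes were within 1 SE of 0 in each line.

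In the upper part of the pathway, from glucose to the triose phosphates, 7 of 9 enzymes had a log2 ratio below 0 with doxycycline in the transgenic line and 6 of 9 in the non-transgenic line. Pfkl, the liver-type subunit of phosphofructokinase, was at 100.3 and 127 FPKM in transgenic cells with and without doxycycline and at 116 and 138 FPKM in non-transgenic cells with and without it. Tpi1, which interconverts the triose phosphates, was at 407 and 495 FPKM in transgenic cells with and without doxycycline and at 480.2 and 578 FPKM in non-transgenic cells with and without it. Gpi1, which isomerises glucose phosphate, was at 189 and 219 FPKM in transgenic cells with and without doxycycline and at 215 and 239 FPKM in non-transgenic cells with and without it. Each of these 3 genes was lower in the doxycycline group of each line. Hk2, a hexokinase that traps glucose, had log2 ratios of -0.04 ± 0.28 (SE) in the transgenic line and 0.04 ± 0.29 in the non-transgenic line. Its paralog Hk1 had log2 ratios of 0.21 ± 0.24 in the transgenic line and -0.12 ± 0.29 in the non-transgenic line. Pfkm, the muscle-type phosphofructokinase subunit, had a log2 ratio of 0.03 in each line, with SEs of 0.47 in the transgenic and 0.43 in the other.

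In the lower part, from triose phosphate to pyruvate, 4 of 5 enzymes had a ratio below 0 in each line, the exception in both being Eno3, the muscle enolase. Pgk1, the first ATP-yielding enzyme of the pathway, was at 648 and 859 FPKM in transgenic cells with and without doxycycline and at 825 and 953 FPKM in non-transgenic cells with and without it. Both doxycycline groups were the lower of their line. Its log2 ratio was -0.41 ± 0.20 (SE) in the transgenic line (p = 0.01455, q = 0.497 in the authors' deposited table) and -0.21 ± 0.22 in the non-transgenic line. Pkm2 was at 2233 and 2406 FPKM in transgenic cells with and without doxycycline and at 2422 and 2641 FPKM in non-transgenic cells with and without it, a smaller shift in the same order. Pgam1, which moves the phosphate within phosphoglycerate, was at 501 and 589 FPKM in transgenic cells with and without doxycycline and at 622 and 652 FPKM in non-transgenic cells with and without it. Both transgenic groups of Pgam1 were below both non-transgenic groups. Eno3 was at 23.7 and 19.6 FPKM in transgenic cells with and without doxycycline and at 20.6 and 19.8 FPKM in non-transgenic cells with and without it.

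The lactate genes differed in direction. Ldha, the subunit that favours making lactate, was at 1259.8 and 1581 FPKM in transgenic cells with and without doxycycline and at 1462 and 1667 FPKM in non-transgenic cells with and without it. Ldhb, the heart-type subunit, was at 255 and 189.5 FPKM in transgenic cells with and without doxycycline and at 184 and 168 FPKM in non-transgenic cells with and without it. Ldha was therefore lower and Ldhb higher in the doxycycline group of each line. The log2 ratio of Ldha was -0.33 ± 0.23 (SE) in the transgenic line (p = 0.0371, q = 0.833 in the authors' deposited table) and -0.19 ± 0.23 in the non-transgenic line. That of Ldhb was 0.43 ± 0.17 in the transgenic line (p = 0.02575, q = 0.689 in the authors' deposited table) and 0.13 ± 0.19 in the non-transgenic line. The ratio of Ldhb to Ldha FPKM was 0.202 and 0.120 in transgenic cells with and without doxycycline, and 0.126 and 0.101 in non-transgenic cells with and without it. The difference between the changes of the 2 subunits was not tested.

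Slc16a3, a monocarboxylate transporter known for lactate export, was at 127 and 169 FPKM in transgenic cells with and without doxycycline and at 136 and 170.5 FPKM in non-transgenic cells with and without it. The doxycycline groups lay close to each other and below both groups without it. Its log2 ratio was -0.41 ± 0.27 (SE) in the transgenic line (p = 0.02485, q = 0.674 in the authors' deposited table) and -0.33 ± 0.23 in the non-transgenic line. The related transporter Slc16a1 stayed between 36.2 and 39.8 FPKM in all groups.

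Of the 4 regulators of flux, 2 had a ratio below 0 in each line. Pfkfb3, whose product makes the activator of phosphofructokinase, was at 7.75 and 8.89 FPKM in transgenic cells with and without doxycycline and at 6.49 and 9.91 FPKM in non-transgenic cells with and without it. Its log2 ratio in the non-transgenic line was -0.61 ± 0.39 (SE; p = 0.01505, q = 0.506 in the authors' deposited table). Pdk1, a kinase that shuts off pyruvate dehydrogenase, was at 38.4 and 33.1 FPKM in transgenic cells with and without doxycycline and at 49.3 and 44.8 FPKM in non-transgenic cells with and without it, higher with doxycycline in each line. Pdk3, a kinase of the same family, lay between 19.1 and 21.8 FPKM in all groups.

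In the oxygen-sensing pathway, the transcripts of the Hif subunits were not lower with doxycycline. Hif1a was at 36.8 and 32.2 FPKM in transgenic cells with and without doxycycline and at 35.7 and 32.7 FPKM in non-transgenic cells with and without it, and Epas1, which encodes another alpha subunit, lay between 3.52 and 4.27 FPKM. These are transcript levels of proteins that oxygen controls by degradation. Egln3, the inducible prolyl hydroxylase, was at 6.78 and 10.4 FPKM in transgenic cells with and without doxycycline and at 14.1 and 20.3 FPKM in non-transgenic cells with and without it. The doxycycline group was the lower in each line, and both transgenic groups were below both non-transgenic groups. The log2 ratio with doxycycline was -0.62 ± 0.35 (SE) in the transgenic line (p = 0.0148, q = 0.500 in the authors' deposited table) and -0.53 ± 0.34 in the non-transgenic line (p = 0.03305, q = 0.786). Vhl, the part of the ubiquitin ligase that recognises hydroxylated Hif, lay between 5.98 and 6.55 FPKM in all groups. Egln1, the main oxygen sensor of the family, was at 11.5 and 15.0 FPKM in transgenic cells with and without doxycycline and at 15.4 and 18.4 FPKM in non-transgenic cells with and without it.

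Of the 11 other hypoxia-induced genes at a mean of 1 FPKM or more, 10 had a ratio below 0 with doxycycline in the transgenic line and 10 in the non-transgenic line, Vegfa (the angiogenic growth factor, 12.6 to 15.0 FPKM) being the exception in both. Ddit4, an inhibitor of mTORC1 signalling that low oxygen and other stresses induce, was at 56.5 and 59.1 FPKM in transgenic cells with and without doxycycline and at 43.9 and 65.8 FPKM in non-transgenic cells with and without it. Its log2 ratio was -0.07 ± 0.23 (SE) in the transgenic line and -0.59 ± 0.25 in the non-transgenic line (p = 0.01175, q = 0.444 in the authors' deposited table). Bnip3, a mitophagy receptor, had log2 ratios of -0.39 ± 0.33 in the transgenic line and -0.04 ± 0.33 in the non-transgenic line. Ankrd37, an ankyrin repeat gene known as a Hif target, was at 5.24 and 7.52 FPKM in transgenic cells with and without doxycycline and at 5.01 and 7.04 FPKM in non-transgenic cells with and without it. Both doxycycline groups of Ankrd37 were below both groups without it, at log2 ratios of -0.52 ± 0.38 in the transgenic line and -0.49 ± 0.48 in the non-transgenic line. P4ha1 and P4ha2 encode catalytic subunits of the enzyme that hydroxylates collagen. P4ha1 was at 8.35 and 10.1 FPKM in transgenic cells with and without doxycycline and at 10.8 and 11.4 FPKM in non-transgenic cells with and without it, and P4ha2 was at 7.30 and 8.67 FPKM in transgenic cells with and without doxycycline and at 7.14 and 9.06 FPKM in non-transgenic cells with and without it. Higd1a, a mitochondrial inner membrane protein, was at 16.8 and 20.7 FPKM in transgenic cells with and without doxycycline and at 21.0 and 24.3 FPKM in non-transgenic cells with and without it. Ndrg1, a stress-responsive gene, was at 5.13 and 5.80 FPKM in transgenic cells with and without doxycycline and at 4.95 and 6.36 FPKM in non-transgenic cells with and without it. All 4 of these were at a lower level with doxycycline in each line, with log2 ratios between -0.36 and -0.08, each within 1 SE of 0. Bnip3l, the paralog of Bnip3, lay between 29.8 and 36.3 FPKM. The SE of a log2 ratio here is the ratio over the deposited test statistic, while the deposited p-values follow that statistic only loosely, so a 95% interval from the SE can span 0 where p is under 0.05.

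**Figure D2:**
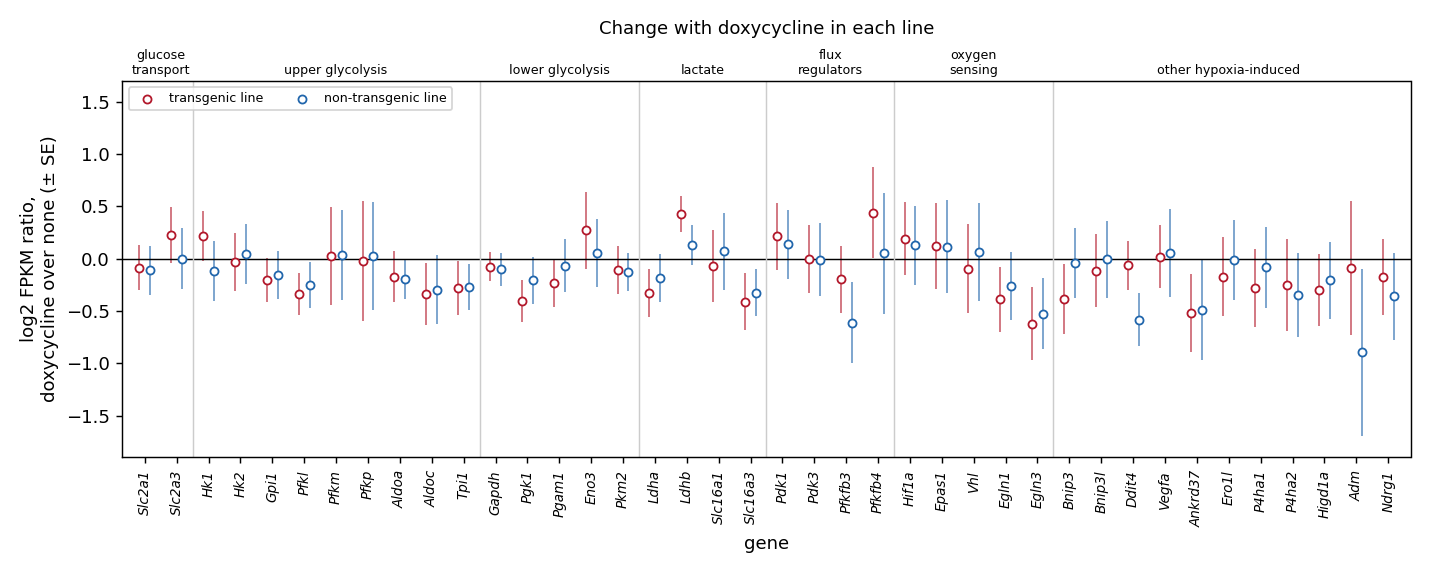
Log2 ratio of FPKM with doxycycline over FPKM without it for the 40 genes with a mean of 1 FPKM or more, in the transgenic line (left point of each pair) and the non-transgenic line (right point), with bars of 1 SE. No point passed q under 0.05, 30 of 40 lie below 0 in the transgenic line and 28 of 40 in the non-transgenic line.

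Over the 40 genes with a mean of 1 FPKM or more, 30 (75%) had a ratio below 0 with doxycycline in the transgenic line, against 49.5% of all 12156 such genes, and 28 (70%) in the non-transgenic line, against 41.8%. Their median change on the log2(FPKM + 1) scale was -0.11 in each line, where the median of all genes was 0.0005 for transgenic cells and 0.02 for non-transgenic cells. The 2 doxycycline comparisons share no library. In both of them 26 of the 40 genes (65%) were below 0, against 2736 of all genes (22.5%), and 8 (20%) were above 0, against 30.9%. The genes above 0 in both lines were Pfkm, Eno3, Ldhb, Pdk1, Pfkfb4, Hif1a, Epas1 and Vegfa. Across the 40 genes Spearman's rho between the ratios of both lines was 0.71, against 0.13 across all genes. It is a description over genes that are not independent. By their titles, the libraries of all groups fall into the same 2 sets, whose meaning the titles do not state. Of the 13 members at 100 FPKM or more, 11 were below 0 in both lines, against 294 of 985 genes at that level (29.8%). Since the list was drawn up with results of these data known, these shares describe it and are not independent support.

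**Figure D3:**
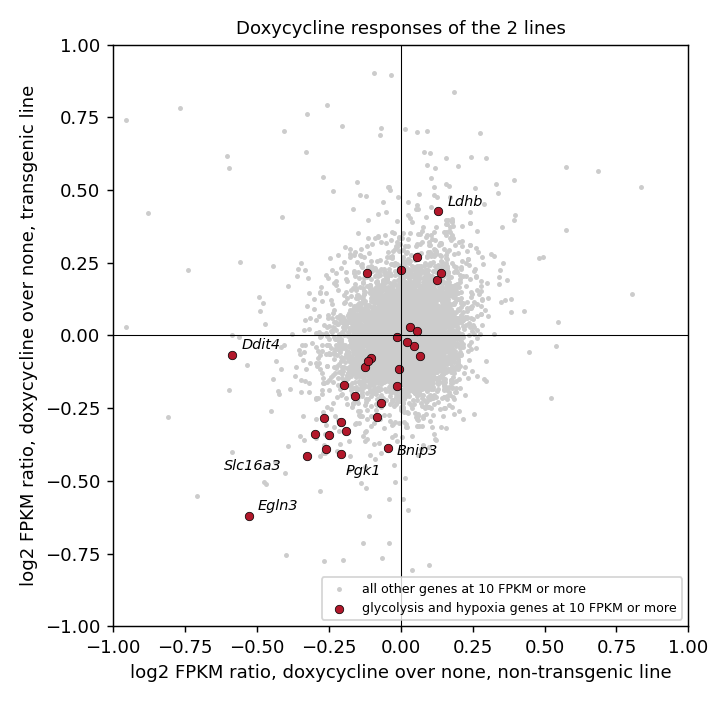
Log2 ratio with doxycycline over none in the non-transgenic line (x axis) and in the transgenic line (y axis) for genes with a mean of 10 FPKM or more, with 32 glycolysis and hypoxia genes in red and all other genes in grey (36 genes lie outside the axes). Egln3, Slc16a3 and Pgk1 lie at the lower left, Ldhb lies at the upper right, and Ddit4 lies at the left with almost no change in the transgenic line.

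Whether doxycycline acted differently in the lines was tested per gene as the difference between the log2 ratios. None of 40 members passed an adjusted p of 0.05 in this normal test, against 18 of 12638 genes (0.142%), and none had an unadjusted p under 0.05, against 58 genes (0.459%). The median difference of the members, transgenic minus non-transgenic, was -0.02. The smallest p of the normal test among members was 0.129, with a Benjamini-Hochberg adjusted p of 0.999994. It belonged to Ddit4, whose difference was 0.52 ± 0.34 (SE). For Bnip3 the difference was -0.34 ± 0.47 and for Ldhb it was 0.30 ± 0.25. As a fraction, the 0.459% of all genes is far below the 0.05 that p-values give where nothing differs, so this test was conservative too. A p that misses the threshold does not show that the lines responded alike.

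Promoters are shown for the genes with p under 0.05 before adjustment with doxycycline in either line, and for Bnip3, which differed between the lines and was picked after its values were seen. They are the 250 bases before the most upstream start in the RefSeq promoter table (build GRCm38.p6), written 5′ to 3′ on the strand of the gene. Capitals mark ACGTG or GCGTG, the Hif core letters, or CACGT or CACGC, the same on the other strand. For Ldha, Slc16a3 and Pfkfb3 the annotated gene begins further upstream than the start used. Positions below are of the first base of a match, counted back from the start.
Pgk1: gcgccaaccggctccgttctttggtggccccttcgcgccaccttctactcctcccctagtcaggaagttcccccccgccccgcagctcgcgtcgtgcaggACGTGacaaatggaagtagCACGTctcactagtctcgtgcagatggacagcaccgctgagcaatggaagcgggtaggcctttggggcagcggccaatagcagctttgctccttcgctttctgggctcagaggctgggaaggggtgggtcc
Ldha: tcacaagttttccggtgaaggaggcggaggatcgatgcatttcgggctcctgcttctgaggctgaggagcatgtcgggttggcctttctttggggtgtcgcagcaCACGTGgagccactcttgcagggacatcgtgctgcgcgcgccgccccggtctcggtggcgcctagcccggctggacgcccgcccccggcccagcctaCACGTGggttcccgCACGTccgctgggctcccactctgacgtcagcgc
Slc16a3: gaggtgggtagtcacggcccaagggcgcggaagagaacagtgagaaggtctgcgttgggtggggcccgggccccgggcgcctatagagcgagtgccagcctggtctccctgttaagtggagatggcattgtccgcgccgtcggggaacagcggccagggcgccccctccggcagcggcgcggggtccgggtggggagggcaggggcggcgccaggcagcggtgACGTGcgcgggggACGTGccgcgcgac
Egln3: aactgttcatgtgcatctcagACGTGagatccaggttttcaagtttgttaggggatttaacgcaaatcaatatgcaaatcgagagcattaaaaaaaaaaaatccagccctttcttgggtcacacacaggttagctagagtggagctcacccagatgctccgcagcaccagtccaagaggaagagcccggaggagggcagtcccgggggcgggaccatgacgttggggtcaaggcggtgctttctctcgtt
Ddit4: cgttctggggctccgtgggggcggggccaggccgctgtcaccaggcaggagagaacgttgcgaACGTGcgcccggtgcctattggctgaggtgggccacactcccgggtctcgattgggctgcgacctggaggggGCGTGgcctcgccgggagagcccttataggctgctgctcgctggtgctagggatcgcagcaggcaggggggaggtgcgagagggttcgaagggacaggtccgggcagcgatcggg
Pfkfb3: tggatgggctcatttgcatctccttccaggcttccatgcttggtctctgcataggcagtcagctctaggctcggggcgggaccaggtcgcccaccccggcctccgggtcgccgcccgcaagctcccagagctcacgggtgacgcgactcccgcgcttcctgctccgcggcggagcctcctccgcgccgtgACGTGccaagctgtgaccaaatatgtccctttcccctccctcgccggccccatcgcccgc
Ldhb: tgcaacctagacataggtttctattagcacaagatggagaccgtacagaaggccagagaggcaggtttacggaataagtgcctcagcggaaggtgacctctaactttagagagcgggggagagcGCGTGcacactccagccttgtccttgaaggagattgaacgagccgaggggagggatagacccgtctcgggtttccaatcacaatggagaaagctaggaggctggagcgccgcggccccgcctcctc
Bnip3: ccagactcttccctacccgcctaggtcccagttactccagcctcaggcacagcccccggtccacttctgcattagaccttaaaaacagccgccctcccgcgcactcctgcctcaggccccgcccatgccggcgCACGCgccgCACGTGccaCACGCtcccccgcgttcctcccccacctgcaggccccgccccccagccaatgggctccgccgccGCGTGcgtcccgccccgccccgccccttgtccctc

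The Pgk1 window is chrX:106186850-106187099 (plus strand), with ACGTG on either strand at 150 and 131 bases before the start. The Ldha window, chr7:46845554-46845803 (plus strand), holds 5 matches, at 145, 144, 48, 47 and 34 bases, since CACGTG reads the same on both strands and counts once on each. The Slc16a3 window, chr11:120948817-120949066 (plus strand), holds 2, at 27 and 14 bases. The Egln3 window, chr12:54203875-54204124 (minus strand), holds 1, at 229 bases. The windows of Ddit4, chr10:59951771-59952020 (minus strand), and Pfkfb3, chr2:11553930-11554179 (minus strand), hold 1 ACGTG each, and that of Ddit4 also holds 1 GCGTG. Ldhb has no ACGTG and 1 GCGTG in chr6:142507958-142508207 (minus strand). Bnip3 has 2 ACGTG and 3 GCGTG in chr7:138909507-138909756 (minus strand).

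The same letters were counted in the 250 bases before every start in the promoter table, which held 49 such windows for 37 of the 41 genes and 12212 for 9546 genes at 1 FPKM or more. A gene was counted where any of its windows held the letters. ACGTG on either strand stood in 23 of the 37 (62.2%), against 2442 of those 9546 genes (25.6%). GCGTG stood in 26 (70.3%), against 50.9%, and either of them in 34 (91.9%), against 62.4%. Counted by window, ACGTG stood in 53.1% of member windows against 21.8% of the windows of those genes. The member windows had a median GC content of 62%, against 60%, and a median of 14 CG dinucleotides, against 16. The list was made of glycolysis and hypoxia response genes, many of them known Hif targets. A higher share of Hif core letters is therefore no independent support for an action of Hif in these cells, which was not tested. The letters CACGTG are also the E-box of Myc-type factors, and a match is a description of the sequence, not a measured site.

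Between the lines, Egln3 and Bnip3 fell in the transgenic line in both conditions, and they were the only members called. With doxycycline, 2 of 40 members tested were called in the authors' deposited table, both lower, where 199 of 13064 genes (1.52%) were called in either direction and 87 (0.666%) lower. Without it, 2 of 41 were called, both lower, where 179 of 13047 genes (1.37%) were called and 75 (0.575%) lower. Before adjustment, by p in the authors' deposited table, 5 of 40 members were under 0.05 with doxycycline, against 7.9% of all genes, and 5 of 41 without it, against 6.59%. Egln3, Bnip3, Pfkp and Ero1l were among them in both conditions, joined by Ldhb with doxycycline and by Pdk1 without it.

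Egln3 lies at chr12:54178981-54203874 (GRCm38.p6). Its levels, 6.78 and 10.4 FPKM in transgenic cells with and without doxycycline against 14.1 and 20.3 FPKM in non-transgenic cells with and without it, were 2.08-fold lower in the transgenic line with doxycycline and 1.95-fold lower without it. The log2 ratio was -1.06 ± 0.37 (SE) with doxycycline and -0.96 ± 0.32 without it (q = 0.00812 in the authors' deposited table for each, the smallest q it holds). Bnip3 lies at chr7:138890836-138909506. It was at 44.4 and 58.1 FPKM in transgenic cells with and without doxycycline and at 91.7 and 94.5 FPKM in non-transgenic cells with and without it. Both transgenic groups were below both non-transgenic groups. The log2 ratio of Bnip3 was -1.05 ± 0.34 (SE) with doxycycline and -0.70 ± 0.32 without it (q = 0.00812 and q = 0.0200 in the authors' deposited table). The Bnip3 values carry the uncertainty of the shared stretches given above, of which Egln3 has none.

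Several other members stood lower in the transgenic line without passing the threshold. Pfkp, the platelet-type phosphofructokinase subunit, was at 13.5 and 13.7 FPKM in transgenic cells with and without doxycycline and at 25.7 and 25.3 FPKM in non-transgenic cells with and without it. Its log2 ratio was -0.94 ± 0.52 (SE) with doxycycline and -0.89 ± 0.57 without it (q = 0.509 and q = 0.459 in the authors' deposited table). Ero1l, an oxidase of the endoplasmic reticulum, was at 13.5 and 15.2 FPKM in transgenic cells with and without doxycycline and at 20.2 and 20.4 FPKM in non-transgenic cells with and without it. Pdk1 had log2 ratios of -0.36 ± 0.33 with doxycycline and -0.43 ± 0.31 without it. Each of these 3 genes kept its order in both conditions. Ldhb was the reverse: its log2 ratio was 0.47 ± 0.18 with doxycycline (p = 0.02165, q = 0.627 in the authors' deposited table) and 0.18 ± 0.17 without it.

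Over the 40 genes with a mean of 1 FPKM or more, 26 (65%) had a ratio below 0 between the lines with doxycycline, against 53.7% of all genes, and 33 (82.5%) without it, against 50.4%. The median change on the log2(FPKM + 1) scale was -0.18 with doxycycline and -0.14 without it, against -0.02 and -0.001 for all genes. All 9 upper glycolysis enzymes were below 0 without doxycycline, and 8 of 9 with it, Hk1 being the exception. The clones differed in pluripotency genes too, where Zfp42 and Nanog rose and Sox2 and Fgf4 fell in the transgenic line, and the fibroblast markers summed to 514 and 489 FPKM in the transgenic groups with and without doxycycline against 417 and 416 FPKM in the non-transgenic groups. Their part in the members' values was not tested.

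**Figure D4:**
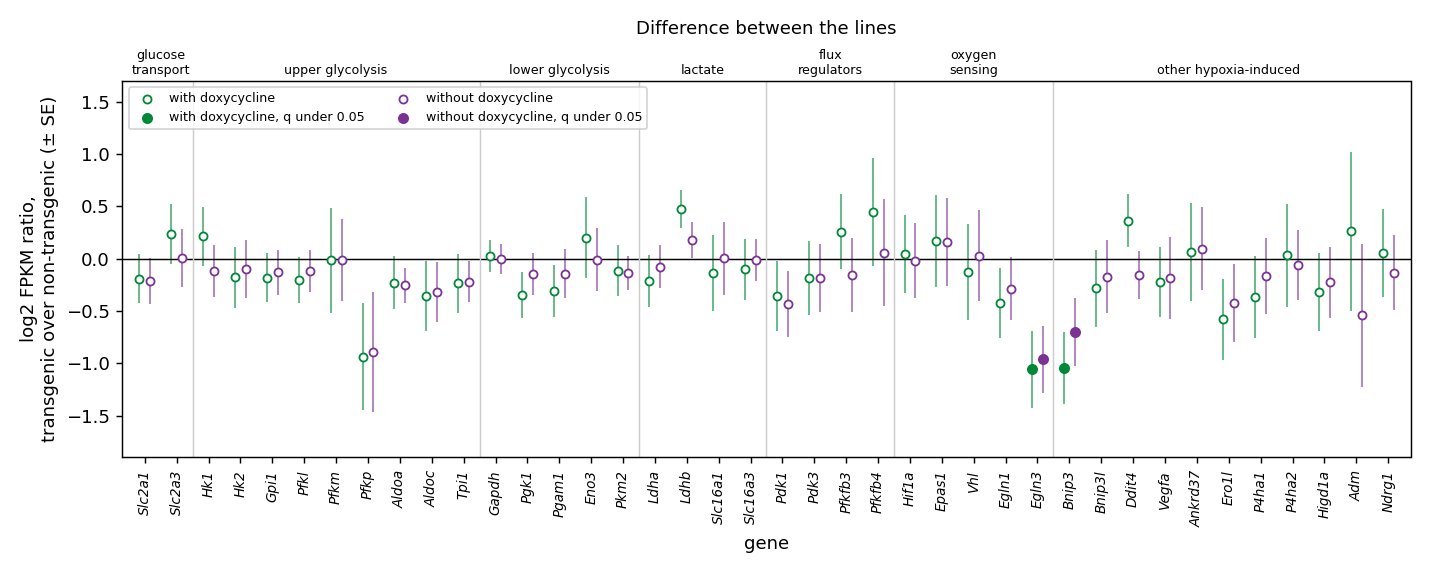
Log2 ratio of FPKM in the transgenic over the non-transgenic line for the 40 genes with a mean of 1 FPKM or more, with doxycycline (left point of each pair) and without it (right point), with bars of 1 SE and filled points where q was under 0.05. Egln3 and Bnip3 are filled in both conditions, Pfkp lies as low with wider bars, and Ldhb lies above 0.

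The rest of the pathway was examined in lists of 29 other glycolysis isozymes and branch enzymes, 13 genes of pyruvate oxidation, 13 of other Hif machinery and 42 further hypoxia-induced genes. With doxycycline, none of their tested genes was called in either line. The 31 further hypoxia-induced genes at 1 FPKM or more had 21 ratios below 0 in the transgenic line and 20 in the non-transgenic line, with medians of -0.06 and -0.09. Fam162a, a mitochondrial Hif target picked after its values were seen, was at 123 and 153 FPKM in transgenic cells with and without doxycycline. Non-transgenic cells with and without it had 165 and 194 FPKM. For doxycycline, p of Fam162a in the authors' deposited table was 0.142 in the transgenic line and 0.293 in the non-transgenic line. The other glycolysis genes had medians of -0.006 in the transgenic line and 0.04 in the non-transgenic line, pyruvate oxidation 0.04 and 0.09, and other Hif machinery -0.02 and 0.01. Between the lines, 16 of the 31 further hypoxia-induced genes were below 0 with doxycycline and 17 without it, with medians of -0.07 and -0.04. Pyruvate oxidation had between-line medians of -0.10 with doxycycline and -0.15 without it. The other glycolysis genes had -0.02 and -0.03, and other Hif machinery -0.02 and 0.008. Called between the lines were 2 genes of these lists. Pygb, the brain-type glycogen phosphorylase, rose to 19.7 and 17.4 FPKM in transgenic cells with and without doxycycline, against 10.1 and 9.72 FPKM in non-transgenic cells with and without it (q = 0.0295 and q = 0.04995 in the authors' deposited table). Igfbp3, a growth factor binding protein, rose to 83.6 and 81.9 FPKM in transgenic cells with and without doxycycline, against 25.0 and 23.7 FPKM in non-transgenic cells with and without it, 3.34- and 3.45-fold higher (q = 0.00812 in the authors' deposited table for each). Both of these differed in the opposite direction to Egln3 and Bnip3. Lox, a collagen cross-linking enzyme, was at 21.8 and 21.9 FPKM in transgenic cells with and without doxycycline and at 14.5 and 14.2 FPKM in non-transgenic cells with and without it, and was not called. Eno1 and Gm5506 shared an entry at 1620 and 1640 FPKM in transgenic cells with and without doxycycline and at 1726 and 1867 FPKM in non-transgenic cells with and without it. Gm5506 also had an entry of its own, at 914 and 955 FPKM in transgenic cells with and without doxycycline. In non-transgenic cells with and without it, that entry was at 1097 and 1174 FPKM.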

How the data were processed

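Total RNA of 8 libraries was sequenced as 75-base reads, per the labels' protocols. Per the submitters' processing notes, the tools include TopHat2 2.0.8 and Cufflinks 2.1.1 and the build is mm10. What each tool did, the annotation and the strand setting: not given in the sources used here. FPKM was deposited by the authors as 1 value per gene and group, combining both libraries of the group. A test statistic (a score), a p-value and a q-value were deposited per comparison. The deposited q-value equals Benjamini-Hochberg adjustment over all 78127 tests of 6 comparisons within 5.21e-07. The deposited log2 fold change column has damaged cells, so log2 ratios were computed from FPKM with no pseudocount. SE is that ratio over the deposited statistic. Medians of change over genes used log2(FPKM + 1). Counts below or above 0, Spearman's rho and the median difference between responses used the log2 ratios with no pseudocount. All of these took genes with a mean of at least 1 FPKM over the 4 groups. The difference between responses was tested with a two-sided normal test that takes those SEs as given. Members and lists were chosen with earlier results of these data known. All members may be named. Other listed genes are named where called, or at a mean of 5 FPKM with a 1.5-fold difference. Fam162a, the Ctcfl check and the Eno1 and Gm5506 entries were chosen after values were seen. Shown promoters were picked by an unadjusted p under 0.05 with doxycycline in either line, plus Bnip3. Shared 75-base stretches came from GENCODE M21 transcripts. Python 3.11.15, numpy 2.4.6, pandas 2.3.3, scipy 1.17.1 and matplotlib 3.10.9 were used.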

Additional observations from a re-analysis of the deposited data

How the results depend on the processing

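No paired analysis was possible because the deposited values are 1 per gene and group, and for the same reason no library could be left out. All 33 alternative values of the counts and medians kept their direction and their side of the threshold. For single genes the alternatives change only the adjustment or the q threshold, not the ratio, and none of 324 such values changed a call. The counts of called members were the same with a looser q of 0.10, with p adjusted within each comparison, and with a minimum mean of 5 FPKM. The median change with doxycycline ranged over the alternatives from -0.15 to -0.11 in the transgenic line and from -0.13 to -0.11 in the non-transgenic line. The count of members lower in both lines was 26 as reported, 25 of 37 at 5 FPKM or more and 27 of 41 with no minimum. The unknown depth and the pair of libraries per group limit the precision of all values.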

Other observations

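Beside the glycolytic genes, 32 nuclear-encoded respiratory chain subunits had median changes with doxycycline of 0.02 in the transgenic line and 0.03 in the non-transgenic line on the log2(FPKM + 1) scale, and none was called in the authors' deposited table. The 16 Atf4 targets, a list that stress signals induce, had medians of 0.08 and 0.007, and none was called. Ddit3, a stress-induced transcription factor, was at 6.55 and 7.13 FPKM in transgenic cells with and without doxycycline and at 9.01 and 14.5 FPKM in non-transgenic cells with and without it (p = 0.607 for doxycycline in the non-transgenic line, in the authors' deposited table).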
